A study of Mus musculus with 30 samples.

Results

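Integrins and laminins are the receptor and ligand chains through which a muscle fibre holds on to its surrounding basement membrane. The chains described here are the genes whose symbol is Itga or Itgb with a number (an integrin α or β chain) or Lama, Lamb or Lamc with a number (a laminin α, β or γ chain), with a raw count of at least 10 in at least 7 of 30 libraries. Of 56980 genes in the deposited table, 32 had such a symbol and 30 passed, 20 integrin and 10 laminin chains. The minimum lay far from every gene. All 30 chains reached it in all 30 libraries, Itgb7 with the lowest median at 29 counts, while Itgb2l and Lama1 reached it in 0 libraries, with highest counts of 3 and 4. The 6 integrin α chains named with letters alone, Itgav among them, fall outside the pattern and are given once as neighbours.

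The samples are soleus muscles, a postural muscle of the lower leg, from 30 C57BL/6J mice aged 3 to 4 months, with RNA counted by sequencing. HU mKO were 8 mice with a muscle-specific double knockout of AMPKα1 and AMPKα2, the catalytic subunits of AMP-activated protein kinase, kept for 4 weeks under hindlimb unloading, in which the hindlimbs bear no weight. HU Ctrl were 7 mice with both genes floxed and no Cre, unloaded for the same time. AMB mKO were 7 double knockout mice that stayed ambulatory for 4 weeks, and AMB Ctrl were 8 ambulatory mice with both genes floxed and no Cre. The floxed alleles are thus carried by controls as well, and as controls had no Cre, loss of AMPK and presence of Cre cannot be told apart. The promoter that drives Cre is not given in the sources used here. Each group held both sexes. Female and male mice numbered 5 and 3 in HU mKO, 3 and 4 in HU Ctrl, 2 and 5 in AMB mKO and 5 and 3 in AMB Ctrl. The design asks what unloading and loss of muscle AMPK each do to soleus transcripts and whether their effects depend on each other.

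Laminins are cross-shaped trimers of 1 α, 1 β and 1 γ chain that assemble into the sheet of the basement membrane. In adult skeletal muscle the trimer around the fibre is built from Lama2, Lamb1 and Lamc1 products, with the Lamb2 chain in place of Lamb1 at the nerve and tendon junctions. Integrins are receptors of 1 α and 1 β chain that span the membrane and tie such ligands to the cytoskeleton. In fibres the pair of Itga7 and Itgb1 products binds laminin, beside dystroglycan, the other main laminin receptor.

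Promoter windows are shown for Itga5 and Itgb1, chains of 1 receptor pair that both passed the test under unloading in control mice, and for Lama2, the muscle laminin chain whose level followed that of Itga5 closely across libraries. Each window is 300 bases, 250 before to 50 after the annotated start, printed 5′ to 3′ on the gene's strand, from RefSeq on build GRCm38.p6. The positions on that build are chr15:103366742-103367041 (minus strand) for Itga5, chr8:128685404-128685703 (plus strand) for Itgb1 and chr10:27616893-27617192 (minus strand) for Lama2. Capitals mark matches on either strand to a GC box (GGGCGG) or to a TEAD site (CATTCC), and no match overlaps another.
Itga5: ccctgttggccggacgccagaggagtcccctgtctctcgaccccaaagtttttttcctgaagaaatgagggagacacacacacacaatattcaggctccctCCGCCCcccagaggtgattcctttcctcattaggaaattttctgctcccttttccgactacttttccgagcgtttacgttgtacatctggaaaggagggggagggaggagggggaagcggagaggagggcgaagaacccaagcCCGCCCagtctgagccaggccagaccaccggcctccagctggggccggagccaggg
Itgb1: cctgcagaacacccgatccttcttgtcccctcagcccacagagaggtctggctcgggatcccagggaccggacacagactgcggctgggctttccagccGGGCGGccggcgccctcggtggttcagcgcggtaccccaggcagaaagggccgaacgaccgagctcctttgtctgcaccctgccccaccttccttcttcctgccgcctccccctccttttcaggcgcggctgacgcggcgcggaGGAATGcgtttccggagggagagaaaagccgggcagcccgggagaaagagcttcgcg
Lama2: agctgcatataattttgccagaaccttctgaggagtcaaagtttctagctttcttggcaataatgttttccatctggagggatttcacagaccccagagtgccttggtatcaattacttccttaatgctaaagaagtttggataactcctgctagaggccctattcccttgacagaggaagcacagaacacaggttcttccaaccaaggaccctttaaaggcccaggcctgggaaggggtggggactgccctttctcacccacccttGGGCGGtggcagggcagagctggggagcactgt

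The Itga5 window held 2 GC boxes, the Itgb1 window 1 GC box and 1 TEAD site, and the Lama2 window 1 GC box. None of these windows held an AP-1 site (TGANTCA). Windows were used for 20 of the 30 chains, 23 windows in all. Windows on chromosome 18, where Lama3 lies, were left out. A GC box stood in 43.5% of the 23 windows of the chains and in 35.7% of all 32851 windows used. A TEAD site stood in 13.0% of the 23, against 14.7% of all windows, and an AP-1 site in 8.70%, against 7.81%. Letter matches are a description and not binding sites. GC content was 58.7% for Itga5, 67.3% for Itgb1 and 50.3% for Lama2.

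Total counts per library ran over 12.1 to 17.5 M in HU mKO, 13.9 to 18.1 M in HU Ctrl, 13.0 to 18.5 M in AMB mKO and 15.3 to 20.9 M in AMB Ctrl mice. Transcripts of the targeted Prkaa2 spanned 56.0 to 112 CPM (a read count as a share of its library's total, with totals scaled between libraries by TMM, the trimmed mean of M values) in HU mKO, against 129.9 to 346 CPM in HU Ctrl mice. They spanned 15.0 to 85.2 CPM in AMB mKO, against 169.8 to 258 CPM in AMB Ctrl mice. The genotypes did not overlap for Prkaa2 under either condition, with a log2 change of -1.64 ± 0.24 (SE) in unloaded and -1.89 ± 0.26 in ambulatory mice. Prkaa1, the other catalytic subunit, did not pass, at -0.60 ± 0.18 in unloaded and -0.20 ± 0.18 in ambulatory mice. The library of AMB mKO replicate 2 stood apart. It held 116 CPM of Myh7, the slow myosin that marks soleus fibres, against 6891 to 16580 CPM in the other 6 AMB mKO libraries, and 903 CPM of Adipoq, an adipocyte hormone. HU mKO replicates 2 and 3 came next for Adipoq, at 200.4 and 199.0 CPM, and the other 27 libraries lay between 0.206 and 142 CPM. The library at 142 CPM was a further AMB mKO library, where the median of the 6 was 8.89 CPM. Calls that rest on these 3 libraries, and the genotype values of Lama4, Lamb1 and Lamc1, are given with and without them.

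Per kilobase of exon, Itgb1, the β chain shared by most integrins that bind matrix, had the highest level of the 30 chains in AMB Ctrl soleus, with a median of 57.4 CPM per kb. The laminin chains Lamb2 (48.9 CPM per kb) and Lamc1 (30.5) followed, then Itgb5 (28.6), the β chain of a vitronectin receptor. The muscle laminin receptor chain Itga7 (18.1) and the muscle laminin chain Lama2 (17.4) were close neighbours whose ranges overlapped. Lamb1 had a median of 6.65 CPM per kb, so that within the laminin β chains Lamb2 stood highest and its range did not meet that of Lamb1. Among laminin α chains Lama2 stood above Lama5 (6.42) and Lama4 (6.34), with no overlap, while the ranges of Lama5 and Lama4, chains found in vessel walls, overlapped. Lamb3 and Lama3, chains of an epithelial trimer, were low, at 1.64 CPM per kb for Lamb3 and 1.22 for Lama3. At the foot of the order stood Itga2b, Itga2, Itga4 and Itgb8, at 0.603, 0.539, 0.490 and 0.332 CPM per kb.

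Itgb6 stood seventh of the 30 chains, at 13.2 CPM per kb. Its product pairs with that of Itgav and is best known from epithelia. Its libraries ran over 76.2 to 126 CPM in AMB Ctrl mice, and it was at 4.34 CPM in AMB mKO replicate 2, the library with 116 CPM of Myh7, against 95.0 to 135 CPM in the other 6 AMB mKO libraries. Of 8 epithelial marker genes 6 had too few counts to be tested, and 2 of these were at 0 in all libraries. The summed level of the 2 tested markers, Trp63 among them, was 20.6 to 34.4 CPM in HU mKO and 11.7 to 41.4 in HU Ctrl mice. It was 2.53 to 10.5 CPM in AMB mKO and 3.92 to 11.5 in AMB Ctrl mice. Under unloading only Trp63 of the 2 was called, higher in both genotypes. The other had log2 changes of 0.63 in mKO and -0.55 in control mice.

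**Figure D1:**
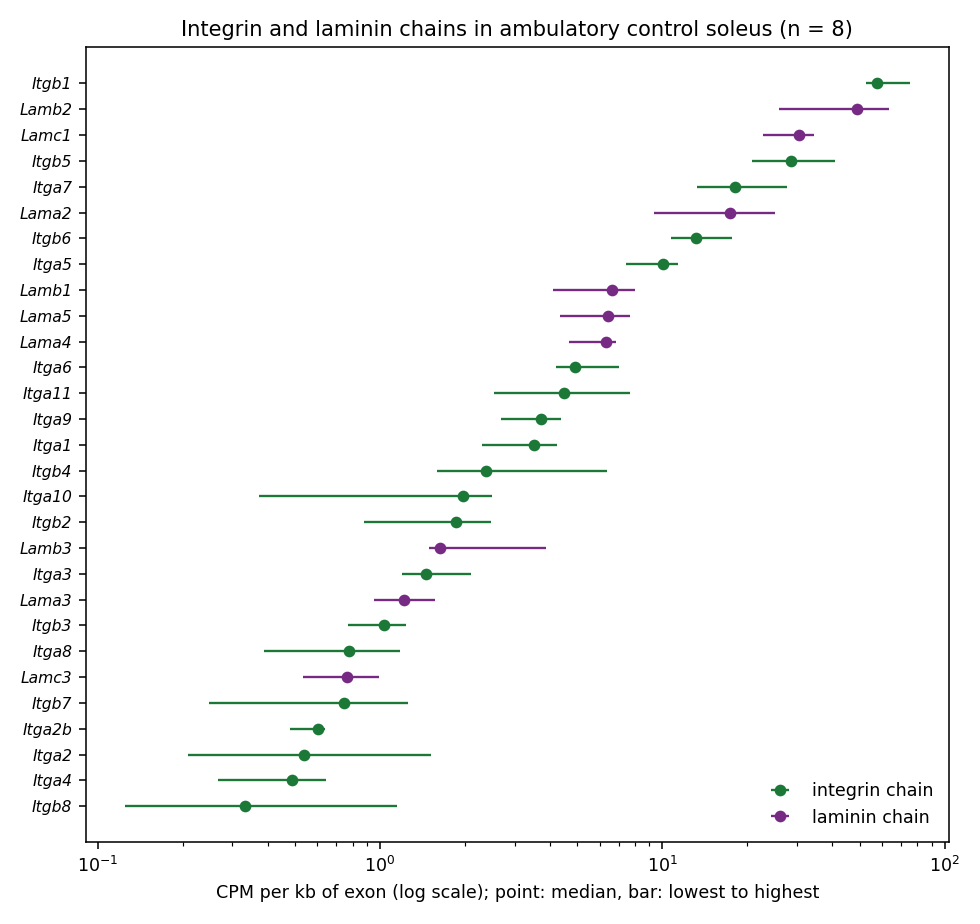
Level of 29 of the 30 chains in AMB Ctrl soleus (n = 8), in CPM per kilobase of exon on a log scale. Points are medians and bars run from the lowest to the highest library. Itgb1, Lamb2 and Lamc1 lead, and Itgb8 is lowest at 0.332 CPM per kb.

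Unloading lowered 3 of the 30 chains in control mice, Itga5 and Itgb1 among them, and raised none. A gene was called at a Benjamini-Hochberg adjusted p below 0.05 in edgeR's quasi-likelihood test over 16932 genes. The 3 chains are 10% of the 30, and 11.1% of all genes tested were called in this comparison (5.74% lower), so the share is near the background and is not a result about the chains as a set. In mKO mice unloading lowered 1 chain, Itga5, or 3.33% of the 30, where 10.1% of all genes were called (4.75% lower). The median log2 change over the 30 chains was -0.22 in mKO mice, where that of all genes was -0.04, and -0.17 in control mice, where that of all genes was 0.03. At an unadjusted p below 0.05 there were 8 of 30 chains in mKO mice, against 27.3% of all genes, and 5 of 30 in control mice, against 26.4%. Values were negative for 22 of 30 chains in mKO and for 20 of 30 in control mice. Without the 3 Adipoq-rich libraries 5 chains fell in mKO mice, Itga5, Itga9, Itgb1 and Lamb1 among them, where 13.7% of all genes were called (7.07% lower). In control mice 6 then fell, Itga5, Itga6, Itgb1, Lamb1 and Lamb3 among them, where 16.4% of all genes were called (9.37% lower). Without AMB mKO replicate 2 alone, 4 chains fell in mKO mice, where 13.5% of all genes were called (6.82% lower). Without AMB Ctrl replicate 1 alone, 2 chains fell in mKO mice, where 9.37% of all genes were called (4.43% lower), and 2 in control mice, where 11.5% were (5.74% lower). In whole muscle, fewer cells of a type and less RNA per cell cannot be told apart.

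Itga5 (ENSMUSG00000000555) encodes the α chain of the fibronectin receptor, which it forms with Itgb1. Levels of single chains are given as the lowest, median and highest library of each group. In control mice Itga5 had 20.2, 28.0 and 31.3 CPM in HU Ctrl mice, against 36.6, 49.5 and 55.9 CPM in AMB Ctrl mice. In mKO mice it had 19.0, 25.1 and 37.9 CPM in HU mKO mice, against 28.8, 41.3 and 69.7 CPM in AMB mKO mice. The HU Ctrl and AMB Ctrl libraries did not overlap. In mKO mice the highest HU mKO library, replicate 3, lay above the lowest AMB mKO libraries and is 1 of the 3 Adipoq-rich libraries. The next highest HU mKO library, replicate 4 at 27.4 CPM, lay below every AMB mKO library. Itga5 fell 1.79-fold in mKO mice (log2 -0.84 ± 0.16 SE, edgeR adjusted p = 0.00201) and 1.85-fold in control mice (-0.89 ± 0.16, adjusted p = 0.000713). The titles end in the letters a, b or c, which the labels do not explain. Within these letters the difference in mean level of Itga5 in mKO mice, HU minus AMB on the log2 scale, was -1.29, -0.95 and -0.22. In control mice it was -0.70, -1.03 and -0.88. The 3 Adipoq-rich libraries are all of female mice with letter c. The letter c value in mKO mice, of 3 HU and 2 AMB mice, thus includes all of them. The call in control mice held in all 12 alternative settings and that in mKO mice in 11, and was lost in a model of HU mKO and AMB mKO mice only (adjusted p = 0.0506).

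Itgb1 (ENSMUSG00000025809) had 157, 175 and 212 CPM in HU Ctrl mice, against 214, 234 and 307 CPM in AMB Ctrl mice. In mKO mice it had 152, 186 and 208 CPM in HU mKO mice, against 193, 228 and 274 CPM in AMB mKO mice. The control groups did not overlap, with every HU Ctrl library below every AMB Ctrl library. Itgb1 fell 1.32-fold in control mice (log2 -0.40 ± 0.11 SE, edgeR adjusted p = 0.0181) and had a value of -0.32 ± 0.11 in mKO mice (adjusted p = 0.0636). Within the title letters HU minus AMB was -0.60, -0.27 and -0.15 in mKO and -0.47, -0.66 and -0.19 in control mice. With no filter on low counts, the adjusted p in control mice was 0.0815. Itga5 and Itgb1 were thus the 2 chains of 30 whose control groups did not overlap, where 2.12% of all genes tested were lower without overlap. In mKO mice 0 of 30 chains were lower without overlap, against 0.372% of all genes.

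**Figure D2:**
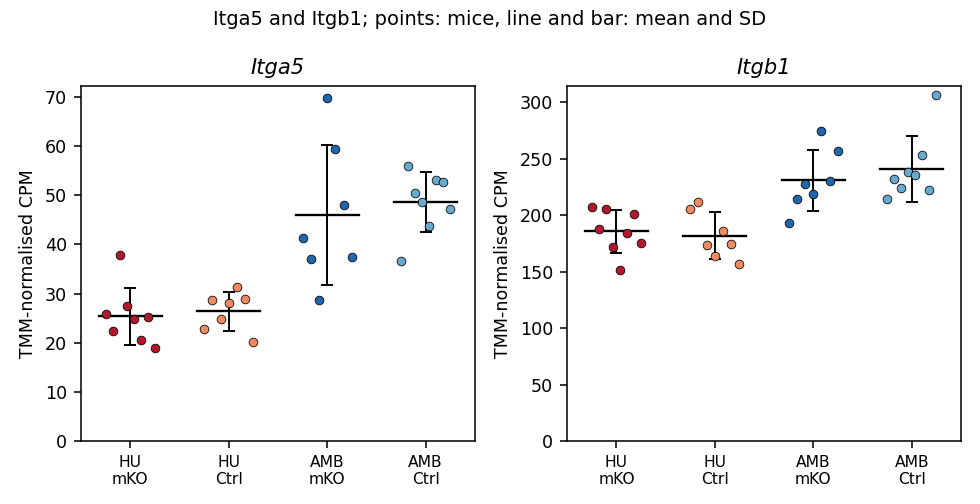
TMM-normalised CPM of Itga5 and Itgb1 in each mouse of the 4 groups, HU mKO (n = 8), HU Ctrl (n = 7), AMB mKO (n = 7) and AMB Ctrl (n = 8). Points are mice, horizontal lines means and bars SD. The HU Ctrl points of Itga5 and Itgb1 all lie below the AMB Ctrl points.

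The laminin α chains showed no call in edgeR in any comparison. Lama2, the α chain of the muscle trimer, had 112, 193 and 289 CPM in HU mKO, 126, 212 and 302 CPM in HU Ctrl, 150.2, 241 and 384 CPM in AMB mKO and 152, 284 and 409 CPM in AMB Ctrl mice. Its groups overlapped throughout, and its log2 change under unloading was -0.39 ± 0.25 in mKO (adjusted p = 0.319) and -0.45 ± 0.25 in control mice (adjusted p = 0.248). In control mice limma called it (log2 -0.62, adjusted p = 0.0310), 1 of the 12 alternatives to do so. Lama5, an α chain of vessel and epithelial membranes, had medians of 77.2 CPM in HU mKO, 75.5 CPM in HU Ctrl, 65.5 CPM in AMB mKO and 73.1 CPM in AMB Ctrl mice. Lama5 varied little, 2.11-fold from its lowest to its highest library over all 30, and its unloading change was 0.27 ± 0.14 in mKO and 0.04 ± 0.14 in control mice. Lama4, the α chain of endothelial and fat cell membranes, had medians of 54.4 CPM in HU mKO, 62.8 CPM in HU Ctrl, 72.2 CPM in AMB mKO and 76.5 CPM in AMB Ctrl mice. For Lama4 the medians were lower in both HU groups, yet the highest values in the series sat in the 3 Adipoq-rich libraries, all of mKO mice. Lama3, the α chain of the epithelial trimer, had medians of 12.6 CPM in HU mKO, 18.5 CPM in HU Ctrl, 11.7 CPM in AMB mKO and 13.1 CPM in AMB Ctrl mice, with changes of 0.17 ± 0.26 in mKO and 0.19 ± 0.26 in control mice.

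Among the laminin β chains, Lamb1 and Lamb3 came nearest to the threshold. Lamb1, the β chain of the muscle trimer, had 28.2, 42.2 and 125 CPM in HU mKO, 33.4, 43.7 and 51.4 CPM in HU Ctrl, 34.0, 70.7 and 243 CPM in AMB mKO and 40.6, 66.0 and 79.3 CPM in AMB Ctrl mice. Its unloading change was -0.82 ± 0.31 in mKO (adjusted p = 0.0812) and -0.51 ± 0.30 in control mice (adjusted p = 0.292). Without the 3 Adipoq-rich libraries Lamb1 passed in both genotypes, at -0.74 in mKO (adjusted p = 0.00868) and -0.62 in control mice (adjusted p = 0.00805). Lamb3, the β chain of the epithelial trimer, had medians of 7.68 CPM in HU mKO, 7.45 CPM in HU Ctrl, 11.2 CPM in AMB mKO and 10.8 CPM in AMB Ctrl mice. Its value was -0.32 ± 0.30 in mKO (adjusted p = 0.525) and -0.84 ± 0.29 in control mice (adjusted p = 0.0625), and the value in control mice passed in 6 of 12 alternative settings. Lamb2, the β chain of the nerve and tendon junctions, had medians of 224 CPM in HU mKO, 247 CPM in HU Ctrl, 269.5 CPM in AMB mKO and 297 CPM in AMB Ctrl mice, with changes of -0.25 ± 0.20 in mKO and -0.22 ± 0.19 in control mice.

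The γ chain of the muscle trimer, Lamc1, had 158, 212 and 308 CPM in HU mKO, 176, 206 and 259 CPM in HU Ctrl, 193, 265 and 459 CPM in AMB mKO and 188, 252 and 286 CPM in AMB Ctrl mice. Its unloading change of -0.51 ± 0.18 in mKO mice missed the threshold (adjusted p = 0.0603), as did -0.25 ± 0.17 in control mice (adjusted p = 0.384). In mKO mice Lamc1 passed in 2 of 12 alternatives, a model with title letters (adjusted p = 0.0265) and DESeq2 (adjusted p = 0.0315). Lamc3 had medians of 3.96 CPM in HU mKO, 3.47 CPM in HU Ctrl, 2.76 CPM in AMB mKO and 4.65 CPM in AMB Ctrl mice, and its values had opposite signs, 0.45 ± 0.36 in mKO and -0.28 ± 0.35 in control mice, with a difference of 0.73 ± 0.52 that did not pass. All 3 chains of the muscle trimer thus had negative values under unloading in both genotypes. None was called in the main edgeR model, with group and sex over all 30 libraries. Each passed in 1 or more of the 12 alternatives in 1 or both genotypes.

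The laminin-binding integrin chains, Itga3, Itga6, Itga7 and Itgb4, showed no call in edgeR over all 30 libraries. Itga7, the α chain of the muscle laminin receptor, had 121, 167 and 201 CPM in HU mKO, 79.4, 178 and 242 CPM in HU Ctrl, 95.7, 148 and 251 CPM in AMB mKO and 107, 147 and 224 CPM in AMB Ctrl mice. Its change was 0.12 ± 0.22 in mKO and 0.09 ± 0.21 in control mice, where its partner Itgb1 had negative values. Itga6, an α chain of nerve sheath, vessel and epithelial cells, had medians of 39.4 CPM in HU mKO, 35.0 CPM in HU Ctrl, 42.0 CPM in AMB mKO and 44.4 CPM in AMB Ctrl mice, and its change was -0.19 ± 0.26 in mKO and -0.33 ± 0.26 in control mice. The value of Itga6 in control mice passed without the 3 Adipoq-rich libraries (log2 -0.41, adjusted p = 0.0327). Itgb4, which pairs with Itga6, had medians of 15.7 CPM in HU mKO, 15.8 CPM in HU Ctrl, 10.6 CPM in AMB mKO and 16.7 CPM in AMB Ctrl mice, and Itga3 had medians of 8.88 CPM in HU mKO, 8.92 CPM in HU Ctrl, 9.00 CPM in AMB mKO and 8.34 CPM in AMB Ctrl mice. Their standard errors differed widely, at changes of -0.14 ± 0.53 and -0.04 ± 0.19 in mKO mice and -0.10 ± 0.53 and -0.19 ± 0.18 in control mice.

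The collagen-binding α chains, Itga1, Itga2, Itga10 and Itga11, showed no call under unloading there either. Itga1, a collagen receptor chain found on vessels and fibroblasts, had medians of 53.3 CPM in HU mKO, 60.0 CPM in HU Ctrl, 62.2 CPM in AMB mKO and 65.5 CPM in AMB Ctrl mice. Itga11, a collagen receptor chain of fibroblasts, had values of -0.36 ± 0.26 in mKO and 0.20 ± 0.26 in control mice. Itga10 and Itga2 were variable, 18.3-fold and 17.8-fold from their lowest to their highest library. Their medians were lower in mKO than in Ctrl mice under both conditions. For Itga10 they were 3.75 CPM in HU mKO, 9.32 CPM in HU Ctrl, 4.49 CPM in AMB mKO and 10.2 CPM in AMB Ctrl mice, and for Itga2 they were 2.44 CPM in HU mKO, 4.10 CPM in HU Ctrl, 3.16 CPM in AMB mKO and 3.84 CPM in AMB Ctrl mice. All 10 tendon cell markers had negative values with loss of AMPK as well, with a median log2 of -0.96 in unloaded and -0.64 in ambulatory mice and 0 of 10 called in edgeR in either. Their part in the levels of Itga10 and Itga2 was not tested.

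The other chains that bind fibronectin or related ligands, Itgb5, Itgb6, Itgb3, Itgb8, Itga8 and Itga2b, had unloading changes of -0.17, 0.35, -0.38, 0.61, 0.05 and 0.09 in mKO mice. In control mice these were -0.18, 0.22, -0.20, 0.41, -0.13 and -0.15. None passed, and Itga5 was thus the called chain of 7 in its group. AMB mKO replicate 2 held 4.34 CPM of Itgb6, against 95.0 to 135 CPM in the other 6 AMB mKO libraries. It held 12.9 CPM of Itgb8, against a group median of 2.88 CPM. HU mKO replicates 2 and 3 held 15.8 and 27.6 CPM of Itgb8, against a group median of 3.71 CPM. The changes of Itgb6 and Itgb8 without the 3 Adipoq-rich libraries are not given here. Itgb5 had medians of 80.7 CPM in HU mKO, 90.4 CPM in HU Ctrl, 93.7 CPM in AMB mKO and 102 CPM in AMB Ctrl mice, and Itgb6 had medians of 119 CPM in HU mKO, 116 CPM in HU Ctrl, 118 CPM in AMB mKO and 93.5 CPM in AMB Ctrl mice. Itga2b and Itgb3 form the fibrinogen receptor of platelets. Both were highest in HU mKO replicate 4, at 12.3 CPM for Itga2b and 13.5 CPM for Itgb3, and Itga2, a platelet collagen receptor chain, was also highest of its group there, at 6.71 CPM. Of 8 platelet markers 3 were tested, and these 3 summed to 30.7 CPM in that library and to at most 15.0 CPM in any other. The part of platelets in these values was not tested.

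Itga9 and Itga4 encode related α chains that both bind osteopontin and VCAM-1. Itga9 had 9.95, 17.5 and 25.3 CPM in HU mKO mice, against 18.5, 27.2 and 47.8 CPM in AMB mKO mice. In control mice it had 9.01, 21.1 and 31.2 CPM in HU Ctrl mice, against 20.6, 28.6 and 33.6 CPM in AMB Ctrl mice. Its unloading change of -0.71 ± 0.24 in mKO mice narrowly missed the threshold (adjusted p = 0.0528) and passed in 6 of 12 alternative settings, among them without AMB mKO replicate 2 (adjusted p = 0.0256). In control mice it was -0.48 ± 0.23 (adjusted p = 0.177). Within the title letters HU minus AMB of Itga9 was -1.455, -0.68 and -0.006 in mKO and -1.07, -0.86 and -0.0004 in control mice. By sex it was -0.12 in female mKO mice, 5 HU and 2 AMB, among which are all 3 Adipoq-rich libraries. It was -0.98 in male mKO mice, and -0.49 in female and -0.56 in male control mice. A difference between the sexes was not tested. Itga4 had medians of 5.16 CPM in HU mKO, 5.15 CPM in HU Ctrl, 5.17 CPM in AMB mKO and 6.84 CPM in AMB Ctrl mice, with changes of -0.49 ± 0.22 in mKO and -0.19 ± 0.22 in control mice. The leucocyte β chains were low. Itgb2 had medians of 4.63 CPM in HU mKO, 6.41 CPM in HU Ctrl, 5.06 CPM in AMB mKO and 5.66 CPM in AMB Ctrl mice and changes of -0.05 in mKO and 0.03 in control mice. Itgb7 had medians of 1.44 CPM in HU mKO, 1.97 CPM in HU Ctrl, 2.00 CPM in AMB mKO and 2.06 CPM in AMB Ctrl mice and changes of -0.94 ± 0.37 in mKO (adjusted p = 0.0972) and 0.16 ± 0.37 in control mice (adjusted p = 0.838). AMB mKO replicates 2 and 4 held 5.655 and 5.529 CPM of Itgb7, and the highest other AMB mKO library, replicate 6, held 2.57 CPM.

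**Figure D3:**
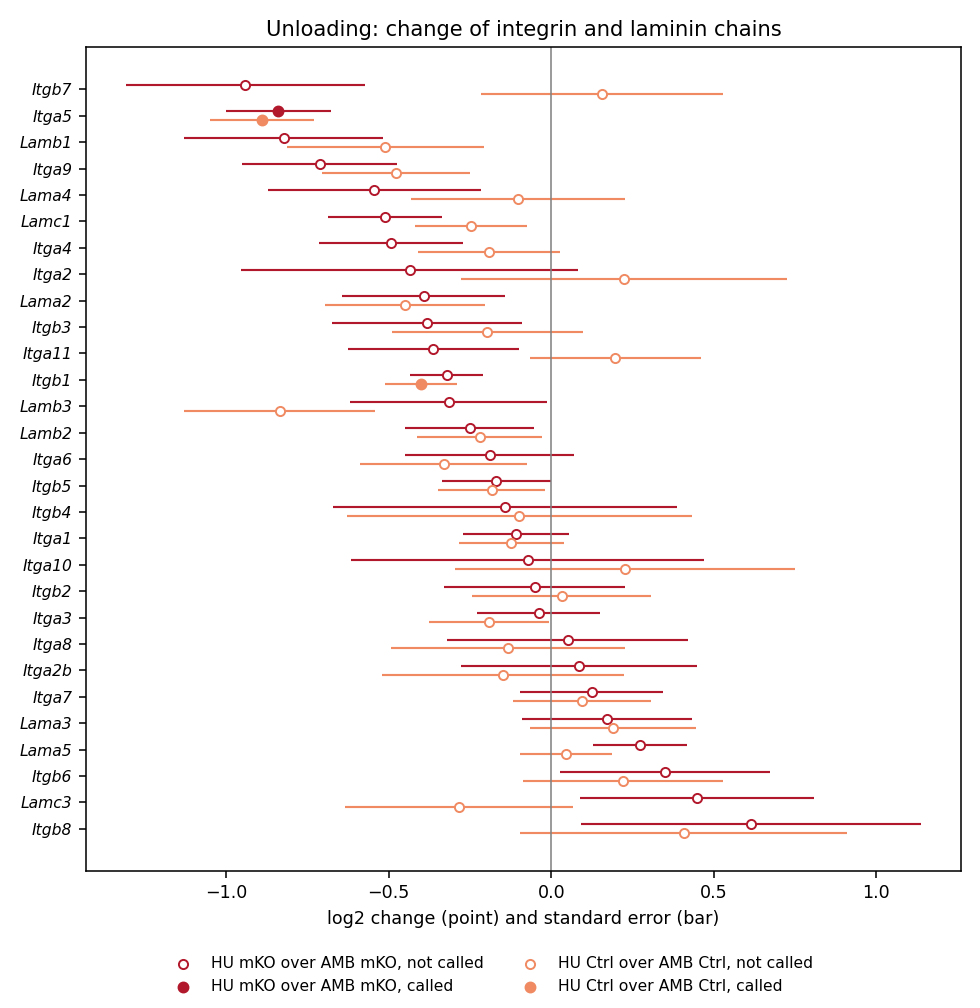
Log2 change of 29 of the 30 chains under unloading (x axis), HU mKO over AMB mKO in red and HU Ctrl over AMB Ctrl in orange, from edgeR's model with sex as a covariate. Points are estimates, bars are standard errors and filled points are called. Itga5 is filled in both genotypes, and Itgb1 is filled in control mice.

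Loss of muscle AMPK changed none of the 30 chains past the threshold. In unloaded mice 0 of 30 were called in edgeR, and 0.0177% of all genes tested were. The smallest unadjusted p among the chains there were 0.0648 for Itga2 (log2 -0.97 ± 0.51 SE), 0.0779 for Itga10 (-0.94 ± 0.51) and 0.0846 for Itgb7 (-0.66 ± 0.37). All 3 had lower values in HU mKO than in HU Ctrl mice with ranges that overlapped, and 0 of 30 chains had an unadjusted p below 0.05, against 1.78% of all genes. In ambulatory mice 0 of 30 were called, again against 0.0177% of all genes, and 1 chain had an unadjusted p below 0.05, where 7.62% of all genes did. DESeq2 and limma called 0 of 30 in either comparison as well. The median over the chains was -0.03 in unloaded and -0.07 in ambulatory mice, against 0.01 and 0.02 over all genes.

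In ambulatory mice the 3 chains with the smallest p were Lama4 (log2 0.70 ± 0.33 SE), Lamb1 (0.59 ± 0.30) and Lamc1 (0.32 ± 0.17), with positive values in AMB mKO mice. In edgeR their unadjusted p were 0.0413, 0.0601 and 0.0778, and all adjusted p were at least 0.644. For Lama4 and Lamb1 the values rest on 1 library. AMB mKO replicate 2 held 353 CPM of Lama4, against 42.5 to 101 CPM in the other 6 AMB mKO libraries and 56.3 to 82.8 CPM in AMB Ctrl mice. It held 243 CPM of Lamb1, against 34.0 to 103 CPM in the other 6, and 459 CPM of Lamc1, against 193 to 424 CPM. For Lamc1, AMB mKO replicates 4 and 5, at 424 and 348 CPM, also lay above every AMB Ctrl library, which spanned 188 to 286 CPM. Without it the log2 changes were 0.045 for Lama4, 0.099 for Lamb1 and 0.16 for Lamc1, and without all 3 Adipoq-rich libraries they were -0.12, -0.049 and 0.11.

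**Figure D4:**
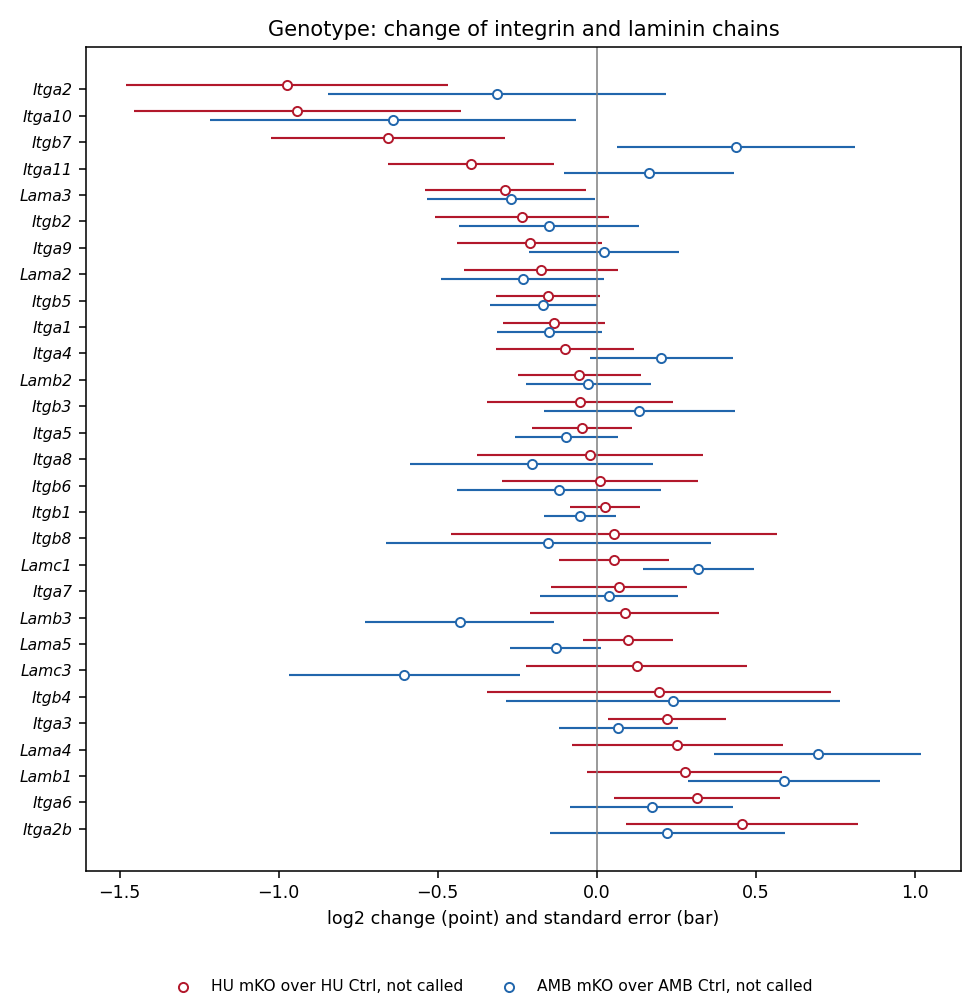
Log2 change of 29 of the 30 chains with loss of muscle AMPK (x axis), HU mKO over HU Ctrl in red and AMB mKO over AMB Ctrl in blue, from the same model. Points are estimates, bars are standard errors, and open points are not called. No point is filled, and the widest bars belong to Itga2, Itga10, Itgb4 and Itgb8.

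Whether unloading acted differently without AMPK was tested as the difference of both unloading changes. None of the 30 chains passed in edgeR, nor did any of 16932 genes (0.0%), and at an unadjusted p below 0.05 there were 0 chains against 2.42% of all genes. The smallest unadjusted p were 0.0503 for Itgb7 (log2 difference -1.10 ± 0.54 SE), 0.149 for Itga11 (-0.56 ± 0.38) and 0.17 for Lamc3 (0.73 ± 0.52). For Itgb7, AMB mKO replicates 2 and 4 held the highest levels of the series. For Itga5 the difference was 0.05 ± 0.23, and for Itgb1 0.08 ± 0.16, so calls made in 1 genotype alone were not shown to differ between genotypes.

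The 3 libraries highest in Adipoq also held high levels of several chains. Itga6 was at 126 CPM in AMB mKO replicate 2 and at 65.6 and 102 CPM in HU mKO replicates 2 and 3, against 28.8 to 63.5 CPM in the other 27 libraries. Lama4 was at 353 CPM in AMB mKO replicate 2 and at 145 and 182 CPM in HU mKO replicates 2 and 3, against 42.5 to 101 CPM in the other 27. For Itga6 and Lama4 all 3 libraries thus lay above every other. Lamb1 was at 243 CPM in AMB mKO replicate 2 and at 93.5 and 125 CPM in HU mKO replicates 2 and 3, against 28.2 to 103 CPM in the other 27. Itgb4 was at 97.9 CPM in AMB mKO replicate 2 and at 37.3 and 72.3 CPM in the HU mKO pair, against 3.48 to 44.8 CPM. Itgb8 was at 12.9 CPM in AMB mKO replicate 2 and at 15.8 and 27.6 CPM in the HU mKO pair, against 1.38 to 17.0 CPM in the other 27, so its ranges overlapped. Itgb6 went the other way, at 4.34 CPM in AMB mKO replicate 2 and at 82.6 and 77.7 CPM in the HU mKO pair, against 76.2 to 148 CPM. Lamb3 was also lowest of its group in AMB mKO replicate 2, at 2.13 CPM, against 9.98 to 13.3 CPM in the other 6.

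Markers of other cells moved with these libraries. The summed level of 10 adipocyte markers was 159.5 to 2702 CPM in HU mKO, 166 to 463 in HU Ctrl, 236 to 10450 in AMB mKO and 237 to 909.5 in AMB Ctrl mice. AMB mKO replicate 3 came next after the 3 libraries for this sum, with 1910 CPM. It was kept in the fits without the 3 libraries. The summed level of 12 Schwann cell markers, of the nerve sheath, was 85.7 to 2256 CPM in HU mKO, 106 to 1014 in HU Ctrl, 91.6 to 2120 in AMB mKO and 90.4 to 794 in AMB Ctrl mice. The 3 libraries highest in Adipoq held the highest 3 values, from 1132 to 2256 CPM. HU Ctrl replicate 7 came next for the Schwann cell markers, with 1014 CPM, and it also held the highest Itgb8 level of its group, 17.0 CPM. Under unloading 1 of the 10 adipocyte markers, Adrb3, fell in mKO mice and 0 in control mice (1, Adrb3, in each genotype without the 3 libraries). None of the 12 Schwann cell markers was called in either genotype. Among all genes tested 4.75% were lower in mKO and 5.74% in control mice (7.07% and 9.37% without the 3 libraries). No gene of either marker list was at 0 in all libraries. The part of these cells in the values of Lama4, Lamb1, Itga6, Itgb4 and Itgb8 was not tested.

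**Figure D5:**
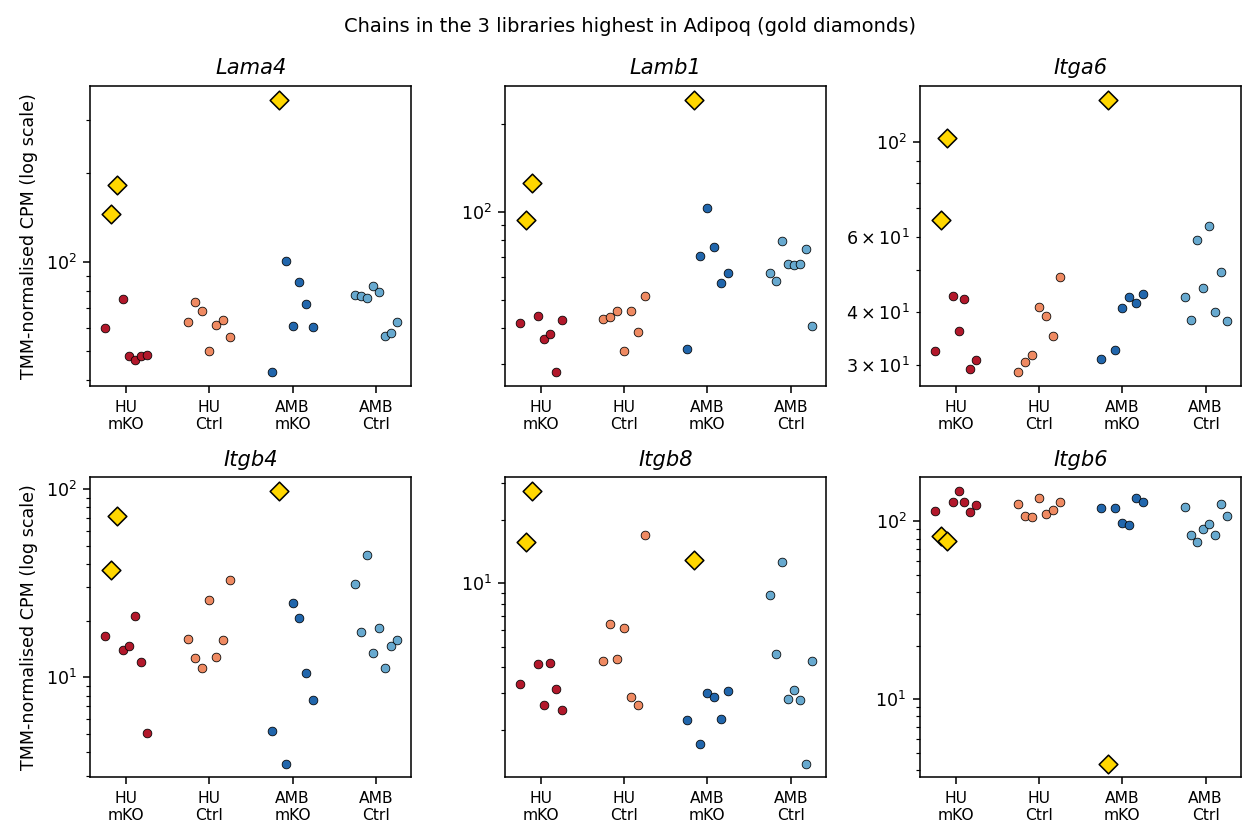
TMM-normalised CPM on a log scale of Lama4, Lamb1, Itga6, Itgb4, Itgb8 and Itgb6 in each mouse of the 4 groups. Gold diamonds are the 3 libraries highest in Adipoq, AMB mKO replicate 2 and HU mKO replicates 2 and 3. They lie above all other points for Lama4 and Itga6, and for Itgb6 the diamond in AMB mKO is far below at 4.34 CPM.

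Other markers were examined beside the calls under unloading. Among all genes tested 10.1% were called in mKO mice (4.75% lower) and 11.1% in control mice (5.74% lower). Without the 3 Adipoq-rich libraries these shares were 13.7% (7.07% lower) and 16.4% (9.37% lower). Of 12 endothelial markers 1 fell in mKO mice (Kdr, log2 -0.85) and 3 fell in control mice (Kdr -1.07, Tie1 -0.72, Egfl7 -0.52). Their summed level was 478 to 713 CPM in HU mKO, 496 to 674 in HU Ctrl, 502 to 730.5 in AMB mKO and 591 to 879.6 in AMB Ctrl mice. Of 11 markers of pericytes and smooth muscle 0 fell in mKO and 4 fell in control mice (Cnn1 -1.75, Acta2 -0.64, Cspg4 -0.74, Myh11 -0.52), with a sum of 1085 to 1504 CPM in HU mKO, 1080 to 1383 in HU Ctrl, 870.3 to 1165 in AMB mKO and 1025 to 1291 in AMB Ctrl mice. Of 10 tendon cell markers 1, Scx, fell in each genotype, and their sum varied widely within groups, over 112 to 1496 CPM in HU mKO, 108 to 3036 in HU Ctrl, 66.0 to 3133 in AMB mKO and 199 to 2607 in AMB Ctrl mice. Of 12 markers of fibro-adipogenic progenitors, 11 of them tested, 2 fell in mKO (Col6a3, Ly6a) and 0 in control mice. The 11 summed to 1610 to 3481 CPM in HU mKO, 1466 to 4517 in HU Ctrl, 1490 to 9149 in AMB mKO and 1967 to 3066 in AMB Ctrl mice. Of 12 fibre type markers 3 rose (Myh1, Actn3, Pvalb) and 1 fell (Myh2) in each genotype. Of 2 tested epithelial markers 1, Trp63, rose in each genotype (log2 2.17 in mKO, 1.87 in control mice), and the other was not called (0.63 and -0.55). Of 8 satellite cell markers 1, Vcam1, fell in mKO (log2 -1.10 ± 0.28) and 0 in control mice. The calls in mKO mice of Vcam1 (log2 -0.86, adjusted p = 0.0582), Ly6a (-0.51, adjusted p = 0.120) and Pvalb were lost without the 3 Adipoq-rich libraries. The slow fibre genes Myl2, Myl3 and Tnni1 were then called lower in both genotypes. Calls were also added for Cspg4 in mKO mice and for Flt1, Tagln and Chodl in control mice. None of 12 tested leucocyte markers was called, and their sum was 162 to 254 CPM in HU mKO, 146 to 380.2 in HU Ctrl, 144 to 472 in AMB mKO and 129 to 333 in AMB Ctrl mice. Apart from 2 epithelial markers, no gene of these lists was at 0 in all libraries, and the part of these cells in the changes of Itga5 and Itgb1 was not tested.

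Over all 30 libraries, the chains whose level followed that of Itga5 most closely were Itga9 (Spearman's rho 0.79), Itgb1 (0.77), Lama2 (0.67), Lamc1 (0.67) and Itgb3 (0.54). Within groups, after each group's mean was removed, these were 0.65, 0.23, 0.61, 0.53 and 0.52. These are descriptions over the 30 libraries, whose depth and tissue makeup vary, and the part of these in the correlations was not tested. Itgb1 was the steadiest chain, 2.02-fold from its lowest to its highest library, and Itgb6, Itgb4 and Itgb8 were the least steady, at 34.2-fold, 28.1-fold and 20.0-fold.

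The partners of laminin in the basement membrane, 17 genes that include collagen IV, perlecan and nidogen, had calls in 1 direction. Of the 17, 5 fell in mKO and 6 in control mice and none rose, where 4.75% and 5.74% of all genes tested were lower. The median log2 change of the 17 was -0.70 in mKO and -0.27 in control mice, beside -0.04 and 0.03 over all genes. In mKO mice Col4a5 (log2 -1.26 ± 0.26 SE, adjusted p = 0.00389), Sparc (-1.78 ± 0.44), Col4a1 (-1.21 ± 0.33) and Col4a2 (-0.95 ± 0.30) had the smallest p. In control mice these were Hspg2, the gene of perlecan (-0.80 ± 0.22, adjusted p = 0.0191), Col18a1 (-1.35 ± 0.39), Col4a1 (-1.10 ± 0.33) and Col4a5 (-0.85 ± 0.26). Col4a1, a chain of the collagen IV network, had 167, 196 and 455 CPM in HU mKO, 126, 203 and 275 CPM in HU Ctrl, 206, 364 and 1237 CPM in AMB mKO and 267, 388 and 704 CPM in AMB Ctrl mice. Without the 3 Adipoq-rich libraries 6 of the 17 fell in each genotype, where 7.07% of all genes were lower in mKO and 9.37% in control mice.

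The dystroglycan and dystrophin complex is the other laminin receptor. Of 21 of its genes the same 4 fell in both genotypes and none rose over all 30 libraries. Among all genes tested 4.75% were lower in mKO and 5.74% in control mice. The median of the 21 was -0.10 in mKO and 0.03 in control mice. The 4 that fell include Sspn, the gene of sarcospan, Sgcd, the gene of δ-sarcoglycan, and Bcam, a receptor for Lama5. In mKO mice the log2 changes were -0.67 ± 0.17 (SE) for Sspn, -0.39 ± 0.11 for Sgcd and -0.75 ± 0.24 for Bcam. In control mice they were -0.69 ± 0.17 for Sspn, -0.50 ± 0.11 for Sgcd and -0.79 ± 0.23 for Bcam. Sspn had 42.8, 53.5 and 76.5 CPM in HU mKO mice, against 41.6, 96.8 and 122 CPM in AMB mKO mice. In control mice it had 45.6, 54.7 and 62.3 CPM in HU Ctrl mice, against 70.7, 87.9 and 109 CPM in AMB Ctrl mice. The groups overlapped in mKO mice and did not overlap in control mice. Without the 3 Adipoq-rich libraries 4 fell in each genotype, where 7.07% of all genes were lower in mKO and 9.37% in control mice. In each genotype 1 then rose, Dmd, the gene of dystrophin, in mKO mice (log2 0.52 ± 0.15 SE, edgeR adjusted p = 0.0179) and Dtna, the gene of α-dystrobrevin, in control mice (log2 0.49 ± 0.15, adjusted p = 0.0210).

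Of 30 tested genes of integrin adaptors and focal adhesions, 1 rose and none fell in mKO mice, Sorbs3, the gene of vinexin (log2 0.52 ± 0.14, adjusted p = 0.0223). In control mice 2 fell and none rose, among them Flnc, a filamin of the Z-disc (-1.37 ± 0.40, adjusted p = 0.0248). Flnc had a value of -1.05 ± 0.41 in mKO mice and was called there without the 3 Adipoq-rich libraries, where 1 of the 30 rose and 1 fell in mKO and 5 fell in control mice. The medians of the 30 were -0.12 in mKO and -0.16 in control mice. Among all genes tested 10.1% were called in mKO mice (4.75% lower) and 11.1% in control mice (5.74% lower). Without the 3 Adipoq-rich libraries these shares were 13.7% (7.07% lower) and 16.4% (9.37% lower).

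Of 29 tested integrin ligands other than laminins, 6 fell in each genotype and none rose, with medians of -0.46 in mKO and -0.30 in control mice. Among all genes tested 4.75% were lower in mKO and 5.74% in control mice. In mKO mice the smallest p belonged to Col3a1 (log2 -2.61 ± 0.54), Col1a1 (-3.92 ± 0.91), Postn, the gene of periostin (-2.30 ± 0.56), and Col1a2 (-3.01 ± 0.76). In control mice it belonged to Postn (-2.96 ± 0.58), Icam2 (-0.86 ± 0.19), Npnt, the gene of nephronectin (-1.39 ± 0.34), and Col1a1 (-2.74 ± 0.84). Fn1, the gene of fibronectin and the main ligand of the pair of Itga5 and Itgb1, fell in mKO mice (-1.60 ± 0.48, adjusted p = 0.0328) and had a value of -1.01 ± 0.47 in control mice (adjusted p = 0.162). Fn1 had 92.5, 193 and 233 CPM in HU mKO mice, against 181, 476 and 1114 CPM in AMB mKO mice, and in control mice 74.7, 163 and 886 CPM in HU Ctrl mice, against 114, 684 and 993 CPM in AMB Ctrl mice. Its groups overlapped in both genotypes. Without the 3 Adipoq-rich libraries Fn1 and Vcam1 were not called in mKO mice, and 5 of the ligands fell there and 6 in control mice. In that fit 7.07% of all genes were lower in mKO and 9.37% in control mice.

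Among the integrin α chains named with letters, 5 of 6 were tested, and Itgad was not. Itgav, which pairs with Itgb1, Itgb3, Itgb5, Itgb6 and Itgb8, fell in both genotypes. It had 55.6, 60.3 and 63.3 CPM in HU Ctrl mice, against 72.1, 88.0 and 98.0 CPM in AMB Ctrl mice, with no overlap, and its log2 change was -0.36 ± 0.10 in mKO (adjusted p = 0.0278) and -0.54 ± 0.10 in control mice (adjusted p = 0.00117). Itgae, an α chain of T cells in epithelia, fell in mKO mice (-1.16 ± 0.31, adjusted p = 0.017) and had -0.92 ± 0.31 in control mice (adjusted p = 0.0543). Its median was 0.875 CPM in HU mKO, against 1.28 CPM in AMB mKO mice. Without the 3 Adipoq-rich libraries Itgae was called in control and not in mKO mice. The leucocyte chains Itgal, Itgam and Itgax were not called, with values of -0.36, -0.70 and -0.85 in mKO and -0.73, 0.20 and -1.06 in control mice. In both comparisons of genotypes 0 genes of these lists passed in edgeR.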

How the data were processed

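Soleus RNA of 30 mice was sequenced with a directional total RNA kit on an Illumina NovaSeq, per the labels. The authors deposited raw read counts per gene, 1 column per mouse and not normalized. The submitters' processing notes name cutadapt 1.16, STAR 2.7.9a, featureCounts 1.6.3, DESeq2 1.34.0, GRCm39 and mm39. The strand setting of the counting is not given in the sources used here. Reads of overlapping antisense genes may be included. Protocol texts that speak of people and metformin do not match mouse soleus and were not used.

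The chains, gene lists and tests were chosen with earlier results of these data known. In edgeR 4.0.16 (R 4.3.3), counts were scaled by TMM, filtered by filterByExpr to 16932 genes, and fitted by a quasi-likelihood model with 4 groups and sex over all 30 libraries. Calls in each of 5 comparisons used p-values adjusted over all genes by Benjamini-Hochberg, with 0.05 as the limit. Per-kilobase levels use exon lengths of the GENCODE annotation. The 12 alternatives include DESeq2 1.42.0 and limma 3.58.1. Named with values are called chains, the highest chains of each role, the 3 smallest p where none is called, and up to 4 list genes per unloading comparison. Fn1 was named after its values were seen. Some genes, 1 chain among them, are not reported here by name, and the counts include them. The procedure was tested on simulated data for HU Ctrl over AMB Ctrl, with changes placed outside the genes of lowest level. It called 69% of 2-fold and 96% of 4-fold changes, so a chain not called may still have changed. P-values measure the spread between these mice.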

Additional observations from a re-analysis of the deposited data

Results flagged for a closer look

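For each of the 30 chains in each of the 4 groups, 120 sets of values in all, the highest and lowest library were compared with Dixon's 95% limit for distance from the rest. A value stood apart in 19 of them, and chance gives about 1 in 20. Of these 19 values 7 came from AMB mKO replicate 2, the library with the lowest Myh7 level. It was highest of its group for Lama4 at 353 CPM, Lamb1 at 243 CPM, Itga6 at 126 CPM, Itgb4 at 97.9 CPM and Itgb8 at 12.9 CPM. It was lowest for Itgb6 at 4.34 CPM and Lamb3 at 2.13 CPM. HU mKO replicate 4 was highest of its group for Itgb3 at 13.5 CPM, Itga2b at 12.3 CPM and Itga2 at 6.71 CPM. HU mKO replicate 3 was highest for Itga5 at 37.9 CPM. AMB mKO replicate 4 was highest for Lamb2 at 513 CPM and Itgb5 at 164 CPM, and AMB mKO replicate 5 for Itga8 at 12.4 CPM. HU Ctrl replicate 7 was highest for Itgb8 at 17.0 CPM and HU Ctrl replicate 3 for Itgb7 at 4.72 CPM. Among AMB Ctrl libraries, replicate 8 was highest for Itgb1 at 307 CPM, replicate 7 was highest for Lamb3 at 25.7 CPM and replicate 1 was lowest for Lamc1 at 188 CPM.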

How the results depend on the processing

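Across 12 alternatives no chain was called for genotype or for the interaction. The number of chains lower under unloading is given with the share of all genes tested that were lower in the same fit. In mKO mice it was 1 (4.75%), and it was 0 (1.3%) with the compared groups alone, 3 (5.62%) with sex left out, 4 (7.00%) with limma, 5 (6.58%) with DESeq2, 6 (7.09%) with the title letter as covariate and 5 (7.07%) without the 3 Adipoq-rich libraries. It was 1 to 4 when 1 library was left out, at 4 (6.82%) without AMB mKO replicate 2 and 2 (4.43%) without AMB Ctrl replicate 1. In control mice it was 3 (5.74%), and it was 7 (12.6%) with limma, 5 (9.78%) with the compared groups alone and 6 (9.37%) without the 3 Adipoq-rich libraries. It was 2 to 4 when 1 library was left out, at 2 (5.74%) without AMB Ctrl replicate 1. No chain was called higher. The counts over all genes in control mice ran from 1225 with no low-count filter to 4287 with limma, beside 1882, and in mKO mice from 608 with the compared groups alone to 2591 with the title letter, beside 1702. Lama4 in AMB mKO over AMB Ctrl reversed to -0.083 with limma and -0.12 without the 3 Adipoq-rich libraries, and Lamb1 to -0.070 and -0.049; the cause was not tested. No paired analysis was possible because the labels give no replicate numbers that groups share. Depth limits the low chains, such as Itgb7 with a median of 29 counts per library.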
